A study of Rattus norvegicus with 14 samples.

Results

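The histone genes of cultured rat aortic smooth muscle cells were followed in polyadenylated RNA. They were taken as every row whose symbol starts with Hist and a digit, H1f, H2af or H3f, and 35 of 17312 genes met this rule. Of these, 24 are genes of the histone clusters (symbols starting with Hist), called replication-dependent here, and 11 are genes of replacement variants (symbols starting with H1f, H2af or H3f). The split is by name only, and a few Hist genes, such as Hist1h1t, are known as variants of the testis. H3f3a, the other gene for H3.3, was not analysed here.

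Cells from a commercial supplier were starved of serum for 24 h in every group. The 14 libraries fell into 5 groups: unstimulated cells at 0 h (2 libraries), cells given PDGF at 925 ng/ml for 2 h (3) or 24 h (3), and cells given JQ1 at 500 nM for 3 h before the same PDGF for 2 h (3) or 24 h (3). PDGF is platelet-derived growth factor, a mitogen of smooth muscle, and JQ1 is a small molecule that displaces BET bromodomain proteins from acetylated histones. Cells given JQ1 without PDGF were not analysed here, so each effect of JQ1 below is one in the presence of PDGF. The labels do not say that the libraries of a group came from separate cultures, so p-values measure only the spread between these libraries, which may be technical.

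Replication-dependent histone genes supply the histones that package new DNA in S phase, and most of their mRNAs end in a stem-loop bound by SLBP and carry no poly(A) tail. Replacement variants are made throughout the cell cycle from polyadenylated mRNAs and are placed into chromatin outside replication. A library of polyadenylated RNA therefore reads most replacement genes in full but only that part of the cluster transcripts that carries a tail. H2afx, counted with the replacement genes here, has an mRNA known in both forms and is also read only in part. For the cluster genes and H2afx, a change in the amount of the mRNA cannot be told apart here from a change in how its 3' end is made.

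RefSeq promoters (build GRCr8, 250 bases before to 50 after the start of the gene) were matched to 31 of the 35 genes. The names of Hist1h1d, Hist1h2bh and Hist1h2bl each fitted more than 1 RefSeq gene. Promoters are shown for a pair of replication-dependent genes and a pair of replacement genes that were higher with JQ1, and for H2afy2, which was lower. They were picked because they display how differently these genes begin. They do not stand for all genes of a direction: H1f0, also higher with JQ1, is not shown, and its window held none of the motifs, as that of H2afy2 did. Capitals mark matches on either strand to TATAAA (the TATA box), CCAAT, ATTTGCAT (the octamer) and TTTCGCGC or TTTGGCGC (E2F sites).
Hist1h2bk (RefSeq H2bc12, chr17:47181891-47182190, minus strand): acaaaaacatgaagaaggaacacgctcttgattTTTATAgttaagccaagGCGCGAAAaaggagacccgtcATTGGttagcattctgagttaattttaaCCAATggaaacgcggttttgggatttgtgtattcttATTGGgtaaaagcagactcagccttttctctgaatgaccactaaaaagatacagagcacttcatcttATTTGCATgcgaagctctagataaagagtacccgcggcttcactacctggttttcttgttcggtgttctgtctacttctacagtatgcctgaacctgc
Hist3h2a (RefSeq H2ac25, chr10:44233033-44233332, plus strand): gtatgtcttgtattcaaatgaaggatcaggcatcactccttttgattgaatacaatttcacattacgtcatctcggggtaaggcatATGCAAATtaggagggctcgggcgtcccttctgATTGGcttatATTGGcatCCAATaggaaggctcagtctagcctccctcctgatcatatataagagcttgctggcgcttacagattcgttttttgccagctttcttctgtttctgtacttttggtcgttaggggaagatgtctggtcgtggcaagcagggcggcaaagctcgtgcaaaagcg
H3f3b (chr10:101757587-101757886, minus strand): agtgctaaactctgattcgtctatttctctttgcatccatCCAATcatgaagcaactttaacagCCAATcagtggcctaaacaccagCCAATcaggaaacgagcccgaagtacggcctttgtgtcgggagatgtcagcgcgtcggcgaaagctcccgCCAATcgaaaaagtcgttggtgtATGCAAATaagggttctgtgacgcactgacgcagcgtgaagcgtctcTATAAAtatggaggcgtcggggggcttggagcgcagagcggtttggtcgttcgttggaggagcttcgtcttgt
H2afx (RefSeq H2ax, chr8:53568468-53568767, plus strand): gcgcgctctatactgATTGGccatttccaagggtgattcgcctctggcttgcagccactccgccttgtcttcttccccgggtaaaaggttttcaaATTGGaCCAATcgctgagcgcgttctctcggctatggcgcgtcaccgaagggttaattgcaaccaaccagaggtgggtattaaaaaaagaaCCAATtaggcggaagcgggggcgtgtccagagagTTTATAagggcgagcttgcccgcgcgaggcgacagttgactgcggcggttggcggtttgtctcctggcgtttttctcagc
H2afy2 (RefSeq Macroh2a2, chr20:30270603-30270902, minus strand): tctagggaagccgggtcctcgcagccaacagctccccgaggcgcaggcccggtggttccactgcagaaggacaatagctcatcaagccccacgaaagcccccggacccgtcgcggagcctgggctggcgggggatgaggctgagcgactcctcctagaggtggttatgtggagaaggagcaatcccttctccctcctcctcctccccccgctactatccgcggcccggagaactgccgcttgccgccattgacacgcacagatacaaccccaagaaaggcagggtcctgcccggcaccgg

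The octamer, a site of POU factors long known from H2B promoters, was found in 8 of 20 matched replication-dependent promoters (40%) and 1 of 11 replacement promoters (9.09%), against 1.64% of all 27457 promoters. The single replacement gene that carried it was H3f3b, which also held 4 CCAAT matches and a TATAAA match 23 bases before its start. CCAAT was found in 18 of 20 replication-dependent promoters (90%), 7 of 11 replacement promoters (63.6%) and 37.7% of all promoters. The letters TATAAA were found in 12 of 20 (60%), 3 of 11 (27.3%) and 14.3%, in the same order. No limit was set on where in the window a motif lay. Relative to the gene start, TATAAA matches began at -33 in Hist1h1a, but at -217 in Hist1h2bk and 9 in H2afz. The shares therefore count matches of letters, and whether a match acts as a TATA box was not tested. An E2F site was found in 1 of 20 replication-dependent promoters, that of Hist1h2bk, in 0 of 11 replacement promoters and in 0.841% of all promoters. The windows of H1f0, H1fnt, H2afy, H2afy2, Hist1h4b and Hist1h4m held none of these letters. Hist3h2a and Hist3h2bb start back to back, and their windows share 283 bases. Hist3h2a was above 0 in 14 of 14 libraries and Hist3h2bb in 2. Hist1h2aa and Hist1h2ba form a second such pair with 261 shared bases. In each pair both windows hold the octamer, within the shared bases, so the 8 promoters stand for 6 separate stretches.

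Levels are given as the authors' normalised FPKM (fragments per kilobase, scaled to the size of the library and then normalised so that spike-in RNA comes together), a scale per length on which genes can be compared. Differences are limma's log2 differences of normalised FPKM + 1 with their standard errors, and a gene is called at a Benjamini-Hochberg adjusted p under 0.05 over the 10133 genes that had at least 1 normalised FPKM in at least 2 libraries. This filter left 18 of 24 replication-dependent and 7 of 11 replacement genes. A gene that passed it only through the group where it was high was chosen by that level, so the counts below describe the genes tested and not all 35. Of the 18 replication-dependent genes, 8 (Hist1h1b, Hist1h2aa, Hist1h2bd, Hist1h2bl, Hist1h2bo, Hist1h4m, Hist2h3c2 and Hist2h4) reached the minimum in fewer than 2 of the 8 libraries without JQ1. They entered the fit through libraries given JQ1, and their JQ1 differences are given as a description only. The other 10, and all 7 replacement genes, passed on the libraries without JQ1 alone. Among those libraries, Hist1h1t reached the minimum in 2 only, both with PDGF at 2 h, where it was high. H2afy2 reached it in all 8 libraries without JQ1 and in 0 of the 6 with it, so its fall with JQ1 also comes from a gene that passed through its high side. By its second-highest library, Hist2h3c2 (1.32) and Hist1h4m (1.48) lay just inside the filter, and Hist2h2ab (0.992) and Hist1h1a (0.929) just outside. H1fnt, H1foo, H2afb3 and H2afj were listed at 0 in all 14 libraries. Histone genes within a type are close copies, reads were 40 bases long, and it is not stated how reads that fit several copies were counted, so levels of single cluster genes are uncertain. Between 9901 and 11503 genes were above 0 per library, the fewest in PDGF 2 h replicate 1. The smooth muscle identity of the cells was checked on 8 markers (Acta2, Myh11 and others), all tested, whose summed FPKM ran from 10018 to 10416 in the unstimulated libraries.

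The replication-dependent genes were few and uneven in this RNA. Hist1h2bh, an H2B gene, averaged 92.6 ± 3.3 normalised FPKM in unstimulated cells (SD, n = 2) and alone gave 51.8 to 68.7% of the FPKM of the 24 genes in any library. Hist1h2bk, Hist3h2a and Hist1h4b followed, and only these 4 genes were above 0 in every library. The other 20 were at 0 in at least 1 library. The sum over the 24 genes was 0.0299% of the FPKM of all genes in unstimulated cells, 0.0228% with PDGF at 2 h and 0.0234% with PDGF at 24 h. With JQ1 it was 0.0896% at 2 h and 0.115% at 24 h. The 11 replacement genes gave 0.125%, 0.134%, 0.319%, 0.0925% and 0.216% of FPKM in unstimulated, PDGF 2 h, JQ1 plus PDGF 2 h, PDGF 24 h and JQ1 plus PDGF 24 h cells. Each library with JQ1 lay above each library without it in both classes. H3f3b alone gave 60.7 to 63.9% of the replacement sum in the libraries with JQ1 at 2 h and 53.2 to 60.1% at 24 h, so that sum largely follows 1 gene.

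**Figure D1:**
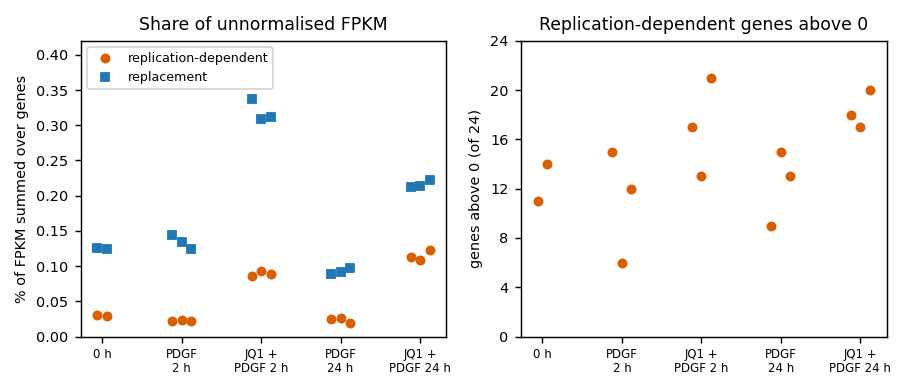
Left, the share of all gene FPKM (unnormalised, %) given by the 24 replication-dependent genes (circles) and the 11 replacement genes (squares), 1 point per library, by group. Right, how many of the 24 replication-dependent genes were above 0 in each library. The shares rise with JQ1 at both times (means of 0.0896% and 0.115% against 0.0228% and 0.0234% for the replication-dependent genes), and the count above 0 runs from 6 to 15 with PDGF alone and from 13 to 21 with JQ1 and PDGF.

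The number of replication-dependent genes above 0 was 11 and 14 in the unstimulated libraries, 15, 6 and 12 with PDGF at 2 h, 17, 13 and 21 with JQ1 and PDGF at 2 h, 9, 15 and 13 with PDGF at 24 h, and 18, 17 and 20 with JQ1 and PDGF at 24 h. The ranges overlapped at 2 h and did not at 24 h. Hist1h2bl, an H2B gene, was above 0 in 3 of 8 libraries without JQ1 and 6 of 6 with it, and Hist1h2bo in 1 of 8 and 5 of 6. Hist2h4, an H4 gene, was above 0 in 1 of 8 and 4 of 6, and Hist2h2ab in 1 of 8 and 4 of 6. Hist1h2bd and Hist2h3c2 were listed at 0 in all 8 libraries without JQ1 and above 0 in 3 of 6 with it. These genes were named for their gain, and others showed none. Hist1h2ak, Hist1h2af and Hist1h1b were each above 0 in 7 of 8 libraries without JQ1 and 5 of 6 with it, and Hist3h2bb in 1 of 8 and 1 of 6. The share of all genes that gained in this way was not counted. Depth is unknown here, and PDGF 2 h replicate 1, with 6 genes, also had the fewest genes of any kind above 0. Its part in the counts was not tested.

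Calls with PDGF alone were few among the 18 replication-dependent genes tested, of which 8 were mostly below 1 normalised FPKM without JQ1. At 2 h against 0 h, 1 of 18 was higher (17.7% of all genes tested were) and 1 was lower (12.7%), where 30.4% of all genes were called in either direction, and the median difference was -0.15 against 0.01 for all genes. By 24 h, 0 were higher than at 0 h (37.7%) and 1 was lower (4.85%; 42.6% in either direction), with a median of -0.08 against 0.41. Between 2 h and 24 h, 2 were higher (44.5%) and 2 lower (11.8%; 56.3% in either direction), with a median of 0.13 against 0.39. The 8 genes that entered through libraries given JQ1 were mostly below 1 normalised FPKM here, and 0 of them were called. Of the 10 that passed without those libraries, 1 was higher and 1 lower at 2 h against 0 h (17.7% and 12.7% of all genes). At 24 h against 0 h these counts were 0 and 1 (37.7% and 4.85%), and between 2 h and 24 h they were 2 and 2 (44.5% and 11.8%). Whether these 10 differ from all genes was not tested. A second scale took the unnormalised FPKM and centred each library on its median gene, and on it the median of all genes was near 0. The centring factors ran only from 1.015 to 1.024, so this scale is nearly that of the unnormalised FPKM. On the median-centred scale, 0 of 19 were higher at 2 h against 0 h (20.4% of all genes) and 1 lower (19.4%; 39.8% in either direction). On that scale 0 were higher at 24 h against 0 h (14.8%) and 0 lower (13.4%; 28.2%), and 1 was higher at 24 h against 2 h (26.6%) and 3 lower (25.8%; 52.5%). The PDGF comparisons at 2 h and 24 h share the same 2 unstimulated libraries.

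Hist3h2a, an H2A gene outside the large cluster, had 13.9 and 13.4 normalised FPKM in unstimulated cells, 6.84, 10.0 and 7.69 with PDGF at 2 h, and 18.4, 16.1 and 13.2 with PDGF at 24 h. All 3 libraries at 2 h lay below all others. It was lower by -0.69 ± 0.17 at 2 h (limma adjusted p = 0.00784) and then higher at 24 h than at 2 h by 0.88 ± 0.16 (adjusted p = 0.000237). Without unstimulated replicate 0 the fall kept its size (-0.66) but missed the threshold (adjusted p = 0.0647). Hist1h1t, the testis-type linker histone, rose at 2 h by 0.85 ± 0.31 (adjusted p = 0.0464), a call that was lost in 8 of 12 alternatives. Without JQ1 it reached 1 normalised FPKM in 2 libraries only, both with PDGF at 2 h. Its PDGF calls, which are in the counts above, are therefore given as a description only. Its levels were 0.279 and 0.413 normalised FPKM in unstimulated cells, 2.82, 0.645 and 1.27 at 2 h, and 0.195, 0.327 and 0.217 at 24 h, so the 2 h libraries were above the others but spread widely. Without PDGF 2 h replicate 0 its difference was 0.52, and without replicate 1, 1.13.

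Hist1h1d, a linker histone gene, fell at 24 h against 0 h (-1.23 ± 0.40, adjusted p = 0.0206). It had 2.75 and 1.55 normalised FPKM at 0 h and 0.204, 0.756 and 0.0861 at 24 h, the first and last of these being unnormalised values of 0, and the groups did not overlap. The call was lost without unstimulated replicate 0, PDGF 24 h replicate 0 or PDGF 24 h replicate 2 (adjusted p = 0.188, 0.0535 and 0.0635). Hist1h4b, an H4 gene, was called higher at 24 h than at 2 h (0.67 ± 0.26, adjusted p = 0.0372) with overlapping groups. Its adjusted p was 0.378 on the median-centred scale. Hist1h2bh, the most abundant cluster gene, differed by -0.01 ± 0.17 at 2 h and 0.28 ± 0.17 at 24 h against 0 h, neither of which passed (adjusted p = 0.961 and 0.194).

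Of the replacement genes, H3f3b had the greatest difference at 2 h of PDGF against 0 h. H3f3b, which encodes the H3.3 variant laid down at active genes, had 179 and 182 normalised FPKM in unstimulated cells, 439.7, 423 and 452 with PDGF at 2 h, and 198, 256 and 235 with PDGF at 24 h. The 2 h libraries stood clear of both other groups. It rose 2.42-fold by the means at 2 h (log2 difference 1.27 ± 0.12, limma adjusted p = 7.49e-07) and was lower at 24 h than at 2 h by -0.94 ± 0.11 (adjusted p = 4.21e-06). At 24 h against 0 h it was called higher by 0.34 ± 0.12 (adjusted p = 0.0306), but on the median-centred scale the difference was -0.13 (adjusted p = 0.505), and the call was lost without either unstimulated library or without PDGF 24 h replicate 1 or 2.

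**Figure D2:**
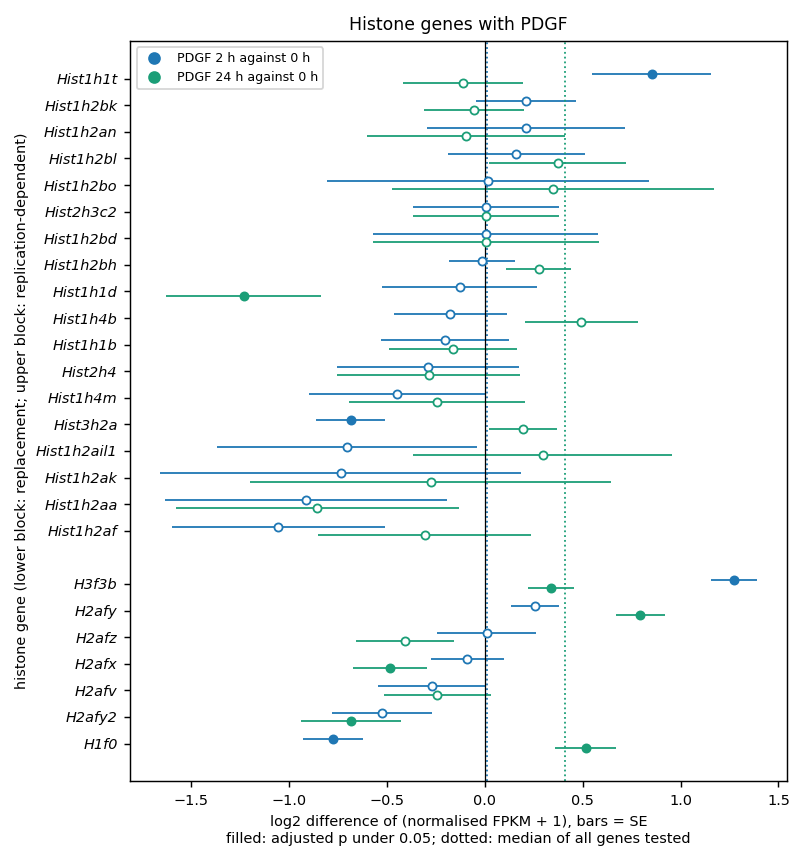
The log2 difference of normalised FPKM + 1 (x axis, bars are standard errors) of each of the 25 tested histone genes (y axis) with PDGF at 2 h (blue) and 24 h (green) against 0 h. Filled points are called, dotted lines are the medians of all tested genes. H3f3b at 2 h (1.27) is the largest rise at 2 h, and Hist1h1d at 24 h (-1.23) the largest fall at 24 h.

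Against 0 h, 1 of 7 replacement genes was higher (17.7% of all genes) and 1 lower (12.7%) at 2 h, and 3 were higher (37.7%) and 2 lower (4.85%) at 24 h. Between 2 h and 24 h, 2 were higher (44.5%) and 1 lower (11.8%). The medians were -0.09, -0.24 and -0.16. Median-centred, lower calls outnumbered higher ones: 1 was higher and 2 lower at 2 h against 0 h (20.4% and 19.4% of all genes), 1 and 3 at 24 h against 0 h (14.8% and 13.4%), and 1 and 4 between 2 h and 24 h (26.6% and 25.8%). H1f0, the linker histone known from cells that have stopped dividing, had 68.5 and 80.9 normalised FPKM at 0 h, 40.9, 49.2 and 39.7 with PDGF at 2 h, and 101, 122 and 98.5 with PDGF at 24 h, 3 ranges that did not overlap. It fell by 0.78 on the log2 scale at 2 h (SE 0.15, adjusted p = 0.00142) and was higher at 24 h than at 2 h by 1.29 ± 0.14 (adjusted p = 2.5e-06). Its rise at 24 h against 0 h (0.52 ± 0.15, adjusted p = 0.014) was 0.06 on the median-centred scale (adjusted p = 0.809) and was lost without unstimulated replicate 0 or PDGF 24 h replicate 1.

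H2afy, which encodes macroH2A1, a large variant found in silent chromatin, had 59.4 and 57.8 normalised FPKM at 0 h, 67.9, 66.9 and 76.4 with PDGF at 2 h, and 107, 95.3 and 106 with PDGF at 24 h. It rose at 24 h against 0 h by 0.80 ± 0.12 (adjusted p = 0.000135) and, more weakly, by 0.34 on the median-centred scale, where it was still called. H2afx and H2afy2 were called lower at 24 h against 0 h (-0.48 ± 0.19 and -0.68 ± 0.26, adjusted p = 0.0498 and 0.0412), and each call was lost in 6 of 12 alternatives, whereas on the median-centred scale the falls were greater (-0.93 and -1.11, adjusted p = 0.000131 and 0.00183). For H2afx the losses included leaving out unstimulated replicate 1 (-0.30, adjusted p = 0.346) or PDGF 24 h replicate 1 or 2, and for H2afy2 leaving out any 1 of the 5 libraries.

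The replication-dependent genes called with JQ1 were all higher. At 2 h against PDGF alone, 8 of 18 replication-dependent genes were higher (7.24% of all genes tested were) and 0 were lower (34.0%), with 41.3% of all genes called in either direction. At 24 h 9 were higher (4.61%) and 0 lower (48.5%), with 53.1% called in either direction. These counts include genes that entered only through libraries given JQ1, 1 at 2 h (Hist1h2bl) and 3 at 24 h (Hist1h1b, Hist2h3c2 and Hist2h4). Of the 10 genes that passed without those libraries, 7 were higher at 2 h and 6 at 24 h, and 0 were lower. Some genes that did not pass had estimates below 0, such as Hist1h2af (-0.45) and Hist1h2ak (-0.10) at 24 h. By limma, 0 of the 18 genes were lower at either time at an unadjusted p under 0.05 as well. That share was not counted over all genes, and 8 of the 18 had entered through libraries given JQ1, so it is a description only. The median differences of the 18 were 1.04 and 0.78, against -0.29 and -0.48 for all genes. These values, and the counts below on the median-centred scale and by type, include the 8 genes that entered through libraries given JQ1. Those 8 were mostly below 1 normalised FPKM without JQ1 and had little room to fall, so these values are a description only. On the median-centred scale, on which 20.1% of genes were higher at 2 h and 23.1% at 24 h (21.5% and 25.8% lower, 41.5% and 48.9% in either direction), 8 and 10 of the 19 replication-dependent genes tested there were higher and 0 lower. The 5 genes called at both times were Hist1h2bh, Hist1h2bk, Hist3h2a, Hist1h4b and Hist1h1t, and each kept both calls in all 13 alternatives tried. By the type in the symbol, 1 of 3 tested H1 genes, 3 of 6 H2A, 3 of 5 H2B, 0 of 1 H3 and 1 of 3 H4 genes were higher at 2 h, and 3, 1, 2, 1 and 2 at 24 h. Among these, Hist1h2bl (H2B) at 2 h and Hist1h1b (H1), Hist2h3c2 (H3) and Hist2h4 (H4) at 24 h entered through libraries given JQ1. Hist1h2ail1 was counted as H2A, but its type is unsure. The coding start in its matched RefSeq window encodes the same first amino acids as that of Hist2h3c2, an H3 gene.

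Hist1h2bh had 72.0, 105 and 101 normalised FPKM with PDGF at 2 h and 306, 339.6 and 374 once JQ1 was added, and 131, 114 and 94.7 against 465, 404 and 405 at 24 h. Every library with JQ1 lay far above every library without it. The rise was 3.66-fold by the means at 2 h (log2 difference 1.88 ± 0.15, limma adjusted p = 3.32e-07) and 3.75-fold at 24 h (1.91 ± 0.15, adjusted p = 4.85e-08). The 2 rises differed by 0.03 ± 0.21 (95% interval from -0.42 to 0.48), which did not pass.

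Hist1h2bk, another H2B gene and the owner of the E2F and octamer matches shown above, had 35.2, 44.2 and 34.0 normalised FPKM with PDGF at 2 h against 79.3, 104 and 75.1 with JQ1, and 35.6, 33.7 and 24.9 against 174, 97.7 and 184 at 24 h. The groups did not overlap at either time, and replicate 1 of the 24 h group with JQ1 was well below the other two. The rise was 2.28-fold at 2 h (1.16 ± 0.23, adjusted p = 0.000906) and 4.84-fold at 24 h (2.20 ± 0.23, adjusted p = 1.05e-06).

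Hist3h2a had 36.5, 35.7 and 42.5 normalised FPKM with JQ1 and PDGF at 2 h, against 6.84, 10.0 and 7.69 with PDGF alone, and 24.0, 26.2 and 24.1 at 24 h against 18.4, 16.1 and 13.2. The rise was 4.67-fold at 2 h (2.11 ± 0.16, adjusted p = 1.65e-07) and 1.56-fold at 24 h (0.62 ± 0.16, adjusted p = 0.00343). At 2 h the libraries with JQ1 were also above the unstimulated ones (13.9 and 13.4).

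Hist1h4b, whose promoter window held none of the motifs, had 7.87, 3.57 and 7.42 normalised FPKM with PDGF at 2 h and 31.9, 42.7 and 29.0 with JQ1, and 7.73, 11.8 and 11.3 against 45.4, 31.6 and 35.1 at 24 h. Again the groups stood apart. The rise was 5.49-fold at 2 h (2.33 ± 0.26, adjusted p = 6.82e-06) and 3.64-fold at 24 h (1.77 ± 0.26, adjusted p = 3.37e-05).

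**Figure D3:**
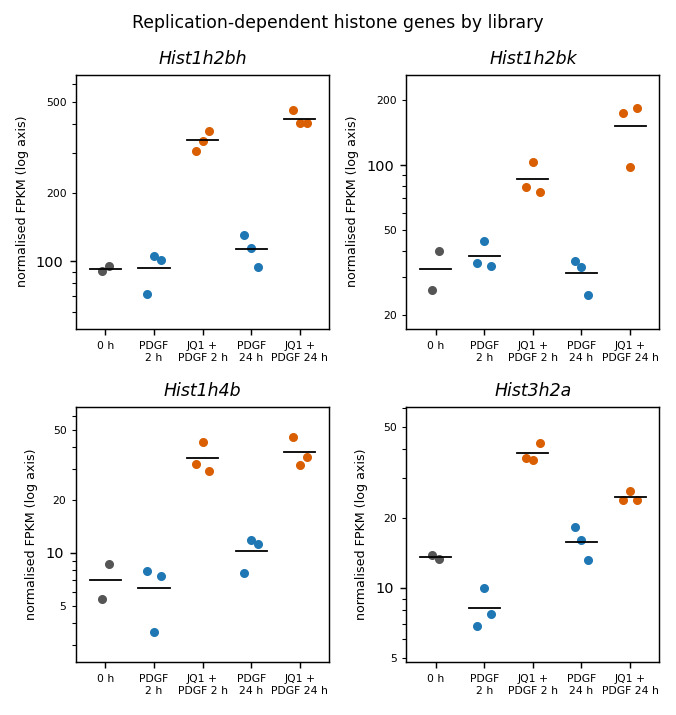
Normalised FPKM (log axis) of the 4 replication-dependent genes above 0 in every library, 1 point per library and a bar at each group mean, by group. For each gene the libraries with JQ1 and PDGF lie above those with PDGF alone at the same time, as for Hist1h2bh (306 to 374 against 72.0 to 105 at 2 h).

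Of the cluster genes for linker histones, Hist1h1t was called at both times. It had 2.82, 0.645 and 1.27 normalised FPKM with PDGF at 2 h and 5.17, 6.65 and 6.04 with JQ1, and 0.195, 0.327 and 0.217 against 2.41, 1.77 and 2.53 at 24 h, with no overlap. Its differences were 1.51 ± 0.27 and 1.37 ± 0.27 (adjusted p = 0.000477 and 0.000601). Hist1h1d rose at 24 h by 1.28 ± 0.35 (adjusted p = 0.00668), from 0.204, 0.756 and 0.0861 to 2.65, 2.04 and 1.94, which did not pass at 2 h (0.25 ± 0.35, adjusted p = 0.601). Hist1h1b, one of the genes that entered through libraries given JQ1, had 0.534, 0.779 and 0.500 with PDGF at 24 h and 2.90, 1.78 and 1.82 with JQ1, and its difference at 2 h was -0.11.

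Among the scarce core histone genes, Hist1h2ail1 rose at 2 h by 2.04 ± 0.59 (adjusted p = 0.0123) from 0.697, 0.219 and 2.03 to 7.01, 10.9 and 3.58 normalised FPKM, and missed the threshold without JQ1 plus PDGF 2 h replicate 1 (adjusted p = 0.0542). Its 2 unstimulated libraries had 7.22 and 0.0969, so libraries of 1 group could differ more than the groups. Hist1h2af, an H2A gene, rose at 2 h by 1.56 ± 0.49 (adjusted p = 0.018) from 1.70, 0.236 and 0.919 to 3.20, 8.71 and 3.00, and lost its call without JQ1 plus PDGF 2 h replicate 1 or PDGF 2 h replicate 1 (adjusted p = 0.0906 and 0.0661). Hist1h2bl, which was below 1 in all 8 libraries without JQ1, had 0.443, 0.186 and 0.110 with PDGF at 2 h and 1.28, 5.12 and 2.64 with JQ1. Hist2h4 was listed at 0 in the 3 libraries with PDGF alone at 24 h, and those with JQ1 had 11.3, 1.96 and 2.73. Both had entered the fit through the libraries given JQ1.

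Hist2h3c2, the cluster gene with an H3 symbol that passed the filter, was listed at 0 in all 8 libraries without JQ1. With JQ1 and PDGF at 24 h it had 0.105 (listed at 0 before normalisation), 1.96 and 1.32. Hist1h2ak and Hist1h2an, both H2A genes, passed in no comparison. Hist1h2ak had 3.49, 0.204 and 1.85 normalised FPKM with PDGF at 2 h and 0.0664, 10.4 and 1.37 with JQ1, so its libraries within a group were far apart. Hist1h2an had 2.38, 0.218 and 1.86 against 2.5, 5.25 and 2.63 at 2 h, and 0.210, 1.81 and 0.839 against 0.765, 1.29 and 0.902 at 24 h, and its differences were 0.92 ± 0.45 and 0.10 ± 0.45 (adjusted p = 0.117 and 0.868).

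The replacement genes did not move together with JQ1. Of the 7 tested, 3 were higher and 2 lower at each time (7.24% and 34.0% of all genes at 2 h, 4.61% and 48.5% at 24 h), with medians of 0.36 at 2 h and -0.24 at 24 h. Median-centred, 4 were higher and 1 lower at each time (20.1% and 21.5% of all genes at 2 h, 23.1% and 25.8% at 24 h). H3f3b, H2afx and H1f0 were higher and H2afy2 lower at both times, and these calls held in all 13 alternatives tried. H2afy2, which is in each count of lower genes, had passed the filter only through libraries without JQ1, where it was high.

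H3f3b had 439.7, 423 and 452 normalised FPKM with PDGF at 2 h and 1245, 1175 and 1173 with JQ1, and 198, 256 and 235 against 754, 692 and 688 at 24 h. It was the most abundant histone gene in every library with JQ1, and its libraries within a group lay close together. The rise was 2.73-fold at 2 h (1.45 ± 0.11, limma adjusted p = 1.34e-07) and 3.10-fold at 24 h (1.63 ± 0.11, adjusted p = 5.82e-09), on top of the rise that PDGF alone gave at 2 h.

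H2afx encodes H2A.X, which is phosphorylated around DNA breaks. Its mRNA is known in both a stem-loop and a polyadenylated form, so its differences carry the same limit as those of the cluster genes. It had 47.9, 50.7 and 65.2 normalised FPKM with PDGF at 2 h and 191, 215 and 247 with JQ1, and 50.2, 34.6 and 39.5 against 169, 132 and 127 at 24 h. The libraries with JQ1 were all above those without. The rise was 3.98-fold at 2 h (1.98 ± 0.17, adjusted p = 6.86e-07) and 3.45-fold at 24 h (1.77 ± 0.17, adjusted p = 4.28e-07).

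H1f0 had 84.8, 67.1 and 81.7 normalised FPKM with JQ1 and PDGF at 2 h, against 40.9, 49.2 and 39.7 with PDGF alone, and 187, 145 and 156 against 101, 122 and 98.5 at 24 h. Its differences of 0.83 ± 0.14 and 0.59 ± 0.14 (adjusted p = 0.000237 and 0.00197) were the smallest of the 3 rises. At 2 h the levels with JQ1 overlapped the unstimulated ones (68.5 and 80.9).

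H2afy2, which encodes macroH2A2, went the other way. It had 5.52, 10.7 and 5.68 normalised FPKM with PDGF at 2 h and 0.888, 0.742 and 0.671 with JQ1, and 5.58, 7.0 and 5.96 against 0.505, 0.570 and 0.420 at 24 h. Its mean was 9.52-fold lower at 2 h (-2.18 ± 0.23, adjusted p = 4.32e-06) and 12.4-fold lower at 24 h (-2.26 ± 0.23, adjusted p = 8e-07). The ratios rest on low values with JQ1, and by unnormalised FPKM they were 7.72-fold and 8.76-fold. Because H2afy2 entered the fit through the libraries where it was high, its fall is given as a description only. H2afy, its close relative, was much nearer to its level without JQ1. It had 51.8, 55.6 and 58.0 at 2 h with JQ1 against 67.9, 66.9 and 76.4 without, and was called lower by -0.35 ± 0.11 (adjusted p = 0.0199). On the median-centred scale that difference was -0.01 (adjusted p = 0.895), and at 24 h the sign turned from -0.24 (adjusted p = 0.0735) to 0.27 (adjusted p = 0.0059).

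**Figure D4:**
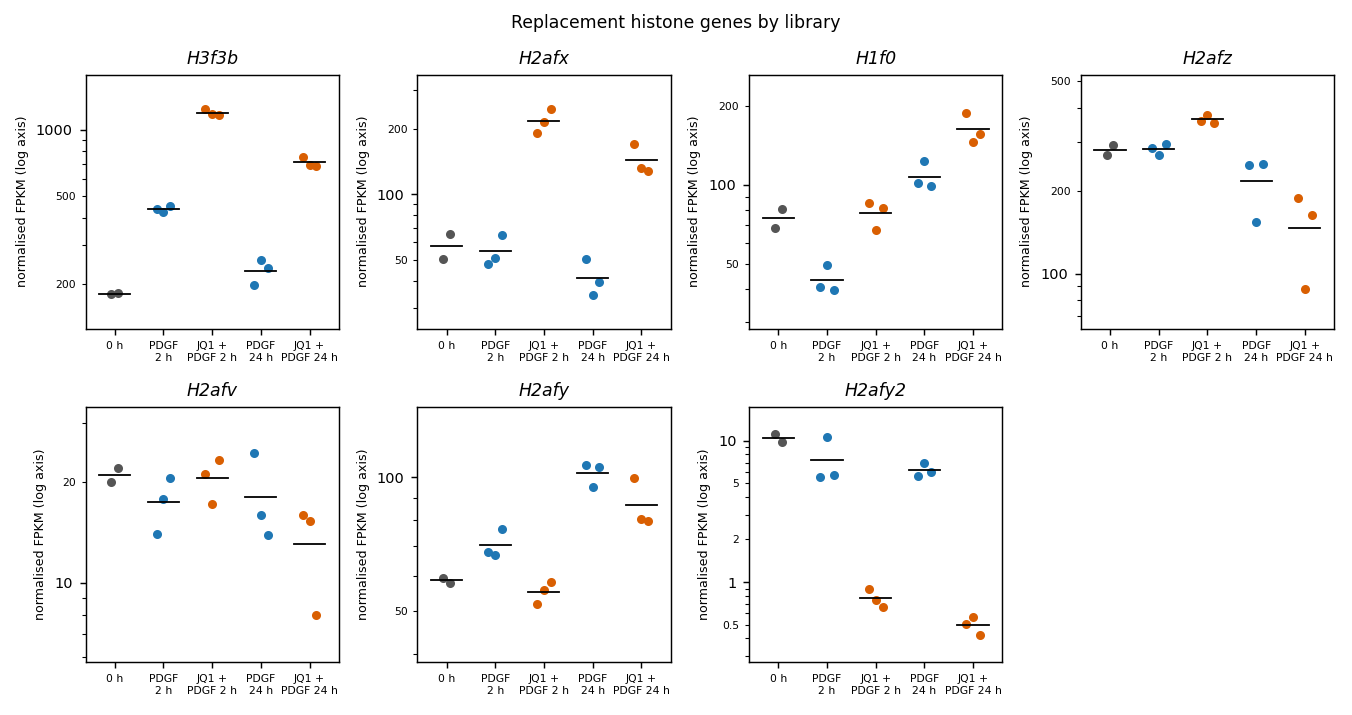
Normalised FPKM (log axes, which differ between genes) of the 7 tested replacement genes, 1 point per library and a bar at each group mean, by group. H3f3b, H2afx and H1f0 are higher and H2afy2 lower with JQ1 and PDGF than with PDGF alone, while H2afv overlaps at both times.

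H2afz, which encodes H2A.Z, a variant at gene starts, was the most abundant histone gene in unstimulated cells at 270.4 and 293 normalised FPKM. It had 285, 269 and 297 with PDGF at 2 h against 359, 378 and 353 with JQ1, and 248, 154 and 250.3 against 188, 88.3 and 164 at 24 h, where the groups overlapped. The difference at 2 h did not pass (0.36 ± 0.22, adjusted p = 0.218) although the groups were apart, and it did on the median-centred scale (0.70, adjusted p = 0.0124). The fall at 24 h (-0.60 ± 0.22, adjusted p = 0.0343) was -0.10 on the median-centred scale (adjusted p = 0.715) and -0.27 without JQ1 plus PDGF 24 h replicate 1 (adjusted p = 0.22). It was also lost without PDGF 24 h replicate 0 or 2. H2afv, which encodes the second H2A.Z, passed in no comparison. It had 13.9, 17.8 and 20.6 with PDGF at 2 h against 21.2, 17.2 and 23.3 with JQ1, and 24.4, 16 and 13.9 against 15.9, 15.3 and 7.98 at 24 h, and its JQ1 differences had 95% intervals from -0.29 to 0.75 and from -0.98 to 0.07.

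The JQ1 difference at 24 h was then set against that at 2 h. It was greater in 2 of 18 replication-dependent genes (4.82% of all genes tested) and smaller in 2 (17.5%), with 22.3% called in either direction, and of the replacement genes it was smaller in H2afz and in no other. On the median-centred scale it was greater in 3 of 19 replication-dependent genes (13.5% of all genes) and smaller in 1 (16.4%; 29.9% in either direction). Hist1h2bk rose more at 24 h by 1.04 ± 0.32 (adjusted p = 0.0306). For Hist2h4 the change was 1.96 ± 0.59 (adjusted p = 0.0261), but it had entered the fit only through the libraries given JQ1 at 24 h. Hist3h2a rose less by -1.49 ± 0.22 (adjusted p = 0.0002), which held in all 19 alternatives. The difference of Hist1h2af was lower at 24 h by -2.0 ± 0.69 (adjusted p = 0.0478), having gone from 1.56 to -0.45, and that call was lost in 12 of 18 alternatives. Between 2 h and 24 h the mean of Hist3h2a went from 8.19 to 15.9 normalised FPKM with PDGF alone (a log2 difference of 0.88). With JQ1 and PDGF it went from 38.3 to 24.8. Both shifts enter its smaller rise at 24 h, and what lay behind them was not tested.

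**Figure D5:**
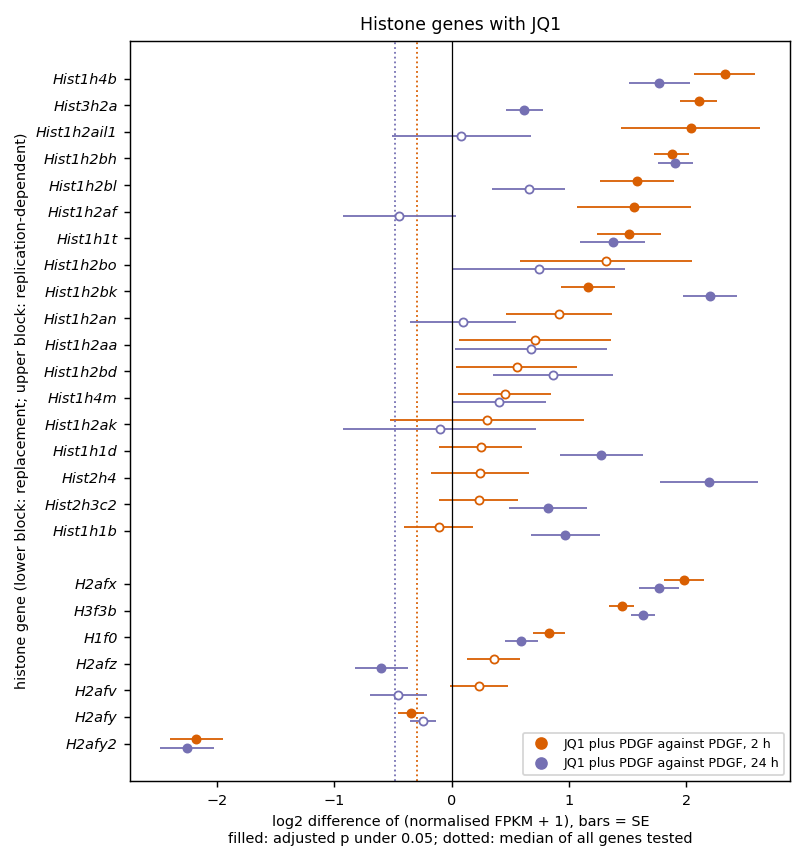
The log2 difference of normalised FPKM + 1 (x axis, bars are standard errors) of each of the 25 tested histone genes (y axis) between cells with JQ1 and PDGF and cells with PDGF alone, at 2 h (orange) and 24 h (violet). Filled points are called, dotted lines are the medians of all tested genes (-0.29 and -0.48). No filled point of the replication-dependent block lies below 0, and H2afy2 lies near -2.2 at both times.

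The machinery that makes the 3' ends of histone mRNAs was followed in a list of 22 genes, of which 17 were tested (Zfp473, Srrt, Ncbp2, Upf1 and Exosc10 were not analysed here). With PDGF at 2 h 2 were higher and 3 lower (17.7% and 12.7% of all genes), and at 24 h 7 were higher and 0 lower against 0 h (37.7% and 4.85%). On the median-centred scale the counts at 24 h were 3 and 1 (14.8% and 13.4% of all genes). With JQ1, 1 was higher and 7 lower at 2 h (7.24% and 34.0% of all genes) and 1 higher and 6 lower at 24 h (4.61% and 48.5%), with medians of -0.51 and -0.34 beside -0.29 and -0.48 for all genes. On the median-centred scale the JQ1 counts were 5 higher and 4 lower at 2 h (20.1% and 21.5% of all genes) and 4 and 1 at 24 h (23.1% and 25.8%). Slbp, whose protein binds the stem-loop, fell with PDGF at 2 h (-0.50 ± 0.14, adjusted p = 0.0138) and rose with JQ1 at 2 h (0.86 ± 0.12, adjusted p = 7.68e-05). Its JQ1 difference at 24 h was lower (-0.45 ± 0.12, adjusted p = 0.00634) but 0.05 on the median-centred scale (adjusted p = 0.794). Cstf2, a subunit of the cleavage stimulation factor, rose with PDGF at 24 h (3.23 ± 0.14, adjusted p = 2.82e-10) and fell with JQ1 at 2 h and 24 h (-1.09 ± 0.13 and -1.79 ± 0.13, adjusted p = 1.14e-05 and 1.75e-08).

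Histone chaperones carry histones to chromatin, and 21 of their genes were tested (Chaf1a and Atrx were not analysed here). Of these, 5 were higher and 0 lower with PDGF at 2 h (17.7% and 12.7% of all genes), and 5 higher and 3 lower at 24 h (37.7% and 4.85%). On the median-centred scale the counts at 24 h were 2 and 8 (14.8% and 13.4% of all genes). With JQ1, 1 was higher and 13 lower at 2 h (7.24% and 34.0% of all genes) and 0 higher and 9 lower at 24 h (4.61% and 48.5%). On the median-centred scale these counts became 3 and 5 at 2 h (20.1% and 21.5% of all genes) and 5 and 4 at 24 h (23.1% and 25.8%). Asf1b, a carrier of new H3 and H4, fell with JQ1 at 24 h (-1.85 ± 0.29, adjusted p = 5.93e-05), as did Hjurp, the chaperone of the centromeric H3 (-1.64 ± 0.28, adjusted p = 0.000171). Cabin1, of the HIRA complex that deposits H3.3, fell with JQ1 at 2 h (-1.63 ± 0.18, adjusted p = 6.09e-06) and at 24 h (-1.42 ± 0.18, adjusted p = 7.48e-06), where H3f3b rose.

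Of 29 tested DNA replication genes (E2f2 was not analysed here), 0 were higher and 5 lower with PDGF at 2 h (17.7% and 12.7% of all genes), and 0 higher and 19 lower at 24 h against 0 h (37.7% and 4.85%). Median-centred, the counts were 1 and 11 at 2 h (20.4% and 19.4% of all genes) and 0 and 25 at 24 h (14.8% and 13.4%). With JQ1, 2 were higher and 15 lower at 2 h (7.24% and 34.0% of all genes) and 1 higher and 22 lower at 24 h (4.61% and 48.5%), with medians of -0.53 and -0.87. On the median-centred scale the JQ1 counts were 2 and 10 at 2 h (20.1% and 21.5% of all genes) and 3 and 13 at 24 h (23.1% and 25.8%). Rrm2, a subunit of ribonucleotide reductase, fell with JQ1 at 24 h (-3.28 ± 0.24, adjusted p = 2.29e-08) and Tk1, thymidine kinase, did so too (-3.02 ± 0.15, adjusted p = 2.17e-10). Mcm3, of the replicative helicase, fell at 2 h (-1.56 ± 0.19, adjusted p = 1.39e-05).

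Markers of other cells of the vessel wall were followed as well. The 5 endothelial markers summed to at most 1.67 FPKM in any library, with Cdh5 at 0 in all 14. Of 5 leukocyte markers, Ptprc and Cd3e were at 0 in all libraries, and the sum ran from 36.9 to 52.9 FPKM with PDGF at 24 h and from 9.53 to 17.1 with JQ1. With JQ1 at 24 h, Cd14 was lower (-3.49 ± 0.21, adjusted p = 2.89e-09) and Cd68 higher (2.33 ± 0.40, adjusted p = 0.000155), and these were the 2 leukocyte markers tested. The 6 adventitial fibroblast markers summed to 95.7 to 115 FPKM with PDGF at 24 h and to 6.10 to 8.44 with JQ1, with Dpt at 0 throughout. The 8 smooth muscle markers were all lower with JQ1 at 24 h, where 48.5% of all genes were. They summed to 1265 to 1509.7 FPKM with PDGF and 385 to 450.2 with JQ1, whereas at 2 h they summed to 10857 to 11496 and 16677 to 16992. Gene by gene, 1 of the 8 was higher with JQ1 at 2 h (Tagln, 0.48) and 3 were lower (Myocd, -1.73, Lmod1, -0.91, and Myh11, -0.69). Of all genes, 7.24% were higher and 34.0% lower there. The median of the 8 was -0.18, against -0.29 for all genes. The part of these shifts in the histone differences was not tested, and fewer cells of a type and less RNA per cell cannot be told apart in such libraries.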

How the data were processed

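Polyadenylated RNA of 14 libraries was sequenced in 40-base reads from a stranded kit with spike-in RNA added in proportion to cell number, per the labels' protocols. The authors deposited FPKM and normalised FPKM per gene. HISAT, Cufflinks 2.0.0 and the build rn6 are named in the submitters' processing notes. The annotation and the normalisation method are not given in the sources used here. In the normalised table an FPKM of 0 stands at about 0.09 to 0.11 in a typical gene of a library, so low values are not true zeros, and a listed 0 can be a failed estimate. Depth is unknown because neither table holds counts.

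Each library was tied to its group by its column name, and 0 columns were without a group. Normalised FPKM were turned to log2(value + 1), which understates the change of low genes. Genes with at least 1 normalised FPKM in at least 2 libraries (10133 of 17312) were fitted with limma 3.58.1 in R 4.3.3, with all 5 groups in 1 model (9 residual degrees of freedom) and Benjamini-Hochberg adjustment over all genes tested. The script was tested on simulated data. The 92 spike-ins were left out. Alternatives were unnormalised FPKM with or without centring each library on its median gene, a pseudocount of 0.1, no filter or a filter at 5, a fit of only the groups compared, and each library left out. The centred and uncentred forms of the unnormalised FPKM are nearly the same data, though each is counted as an alternative. Leaving out PDGF 2 h replicate 1 and PDGF 24 h replicate 0 together was chosen after seeing the data. Values in every library are given for up to 10 replication-dependent genes by mean level and for replacement genes that passed in a comparison, and up to 4 genes of each other list are named by the size of their difference. Other genes given with library values were chosen after their values were seen. The histone genes and all lists were chosen with earlier results of these data known.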

Additional observations from a re-analysis of the deposited data

Results flagged for a closer look

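Among the 25 histone genes tested, 5 had a JQ1 difference that was not the same at 24 h as at 2 h by the interaction term of limma. Hist3h2a had a smaller rise at 24 h (-1.49), with adjusted p-values from 6.11e-05 to 0.000994 over 19 alternatives. Hist1h2bk had a larger rise (1.04), and its call was lost in 8 of 19 alternatives (adjusted p up to 0.084), including without PDGF 24 h replicate 2 or JQ1 plus PDGF 24 h replicate 2. Hist2h4, which entered the fit only through the JQ1 plus PDGF 24 h libraries, had a larger rise (1.96), lost in 2 of 18 alternatives, without JQ1 plus PDGF 2 h replicate 0 or 1 (adjusted p = 0.0569 and 0.0574). The difference of Hist1h2af was lower at 24 h (-2.0), a call lost in 12 of 18 alternatives (adjusted p up to 0.123). H2afz went from a difference of 0.36 that did not pass to -0.60, a change of -0.96, which was lost in 12 of 19 alternatives (adjusted p up to 0.127) and was -0.63 without JQ1 plus PDGF 24 h replicate 1.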

How the results depend on the processing

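Low values limit most cluster genes, and the choice of scale decides several small differences. The counts of replication-dependent genes called with JQ1 were 8 at 2 h and 9 at 24 h, and the second was 5 where at least 5 normalised FPKM in 2 libraries were asked for, with fewer genes tested. Without the genes that passed the filter only through libraries given JQ1, a choice made after seeing the data, they were 7 and 6 of 10. With 1 library left out they ran from 6 to 9 at 2 h and were 8 each time at 24 h. With PDGF at 2 h the count of 2 became 1 on the median-centred and the unnormalised scale and with the filter at 5, 0 with only the groups compared, and 0 to 2 with 1 library left out. At 24 h against 0 h the count of 1 became 0 on the median-centred scale and with the filter at 5, 2 without both libraries whose low values moved most, and 0 to 1 with 1 library left out. Between 2 h and 24 h the count of 4 became 2 with only the groups compared. For the JQ1 difference between times the count of 4 became 2 with no filter and with the filter at 5, and 2 to 4 with 1 library left out. The count of 5 replacement genes at 24 h against 0 h became 3 with a pseudocount of 0.1 and with only the groups compared, and 1 to 4 with 1 library left out. Between 2 h and 24 h the count of 3 became 5 on the median-centred and the unnormalised scale. For the JQ1 difference between times the count of 1 became 2 on both of those scales, 0 with no filter, with only the groups compared and without both libraries, and 0 to 1 with 1 library left out. On the median-centred and the unnormalised scale H3f3b at 24 h against 0 h reversed to -0.13 and H2afy with JQ1 at 24 h to 0.27. Summed normalised FPKM of the replacement genes were 1933, 723 and 1264 in JQ1 plus PDGF 2 h, PDGF 24 h and JQ1 plus PDGF 24 h cells, against 2407, 542 and 1340.3 unnormalised, and of the replication-dependent genes 545, 186 and 669 against 675, 137 and 712. Beyond the fewer genes or libraries that some alternatives hold by construction, the cause was not tested. No paired analysis was possible because the columns carry replicate numbers that do not match the letters in the labels.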
